A study of Rattus norvegicus with 6 samples.

Results

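The genes described here encode Rab GTPases, the small membrane proteins that direct vesicle traffic, in cultured rat oligodendrocyte precursor cells with and without alpha-synuclein fibrils. Members were the genes whose symbol is Rab followed by a number and an optional paralogue letter, and whose level was at least 1 FPKM (fragments counted on a gene, scaled by its length and by the library's mapped total) in at least 3 of 6 libraries. Of 57 such symbols 45 met the level, among 10766 genes of the table's 32662 rows that met it. The rule used levels over all libraries and not the difference between the groups. Each of the 45 members reached 1 FPKM in at least 4 libraries, and 40 did so in all 6, so each had such a library in both groups. Rab32 reached it in all 3 fibril libraries but only in replicate 1 of the controls (2.30, 0.913 and 0.213 FPKM), so its fibril libraries alone met the rule.

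Both groups were primary precursor cells of Sprague-Dawley rat pups aged 1 to 2 days (cerebral cortex), taken off mixed glial cultures in 20% serum as the non-adherent cells and then grown with PDGF, FGF and B27 supplement. The 3 control libraries came from cells without fibrils and the 3 fibril libraries from cells given preformed fibrils of human alpha-synuclein for 72 hours. Fibrils of this protein build up inside oligodendrocytes in multiple system atrophy, and the comparison asked which transcripts differ once precursor cells have met them. Nothing in the labels ties the replicates to separate cultures or pups, and p-values therefore reflect only how far these samples lie apart, a spread that can be technical.

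A Rab protein works as a switch. Exchange factors (GEFs) load it with GTP on a chosen membrane, where it recruits effectors such as tethers and motor adaptors, and GTPase activating proteins (GAPs) turn it off. GDP dissociation inhibitors (GDIs) then lift the lipid-tailed protein back into the cytosol. Each compartment carries its own set: Rab1, Rab2 and Rab6 serve the endoplasmic reticulum and Golgi, Rab5 the early endosome, Rab4 and Rab11 recycling, Rab7 and Rab9 the late endosome, and Rab3, Rab8, Rab10 and Rab27 delivery to the cell surface. In oligodendrocytes such traffic carries myelin proteins and lipids to the growing membrane and takes up material from outside, and several Rabs are substrates of the Parkinson's disease kinase LRRK2.

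Replicate 1 of both groups stood apart. Of the FPKM total, 80.3% (control) and 75.6% (fibril) were mitochondrial in replicate 1, against 12% to 40.1% in the other libraries, and 11518 to 14219 genes were above 0 per library, the fewest in replicate 1. The number of fragments behind an FPKM value is unknown. The summed FPKM of the 45 Rab genes was 3569, 1790 and 1809 in control replicates 1, 2 and 3. In the fibril replicates it was 3709, 1883 and 2133. This order depended on the scaling. With each library scaled to the same FPKM total without mitochondrial genes, the sums were 8173, 5472 and 6365 in the control replicates. The scaled sums were 7948, 5591 and 4327 in the fibril replicates, so the fibril library was higher in replicate 2 alone. The cultures carried precursor transcripts in every library (9 of 10 listed markers tested, sum 1641 to 2682 FPKM in controls and 1260 to 1679 FPKM with fibrils). Of these 9 markers 3 were higher with fibrils and 6 lower (median log2 difference -0.41).

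Markers of other cell types had unequal levels in the groups. All 10 tested of 12 differentiating oligodendrocyte markers were higher with fibrils (median log2 difference 2.18), with sums of 1047 to 4874 FPKM against 4840 to 9194 FPKM. Of 15 microglia and macrophage markers 8 were tested and 5 were higher (median 0.56), with sums of 14.6 to 60.5 FPKM against 21.7 to 71.2 FPKM; in replicate 1 of both groups Csf1r was at 0. Of 12 astrocyte markers 10 were tested and 2 were higher (median -1.13), with sums of 208 to 232 FPKM against 122 to 271 FPKM and Gjb6 at 0 in every library. Of 14 neuron markers 10 were tested and 1 was higher (median -0.66), with sums of 298 to 628 FPKM against 134 to 424 FPKM and Slc17a6 and Slc17a7 at 0 in every library. The 9 endothelial and mural markers had 0 tested members and sums of at most 0.884 FPKM. The part of these cell types in any Rab result was not tested, and in bulk samples fewer cells of a type and less RNA per cell cannot be told apart.

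A few Rab genes made up much of the summed Rab FPKM. By mean FPKM over the 6 libraries, the highest were Rab5c (302 FPKM), of the early endosome, Rab2a (267), of traffic between the endoplasmic reticulum and Golgi, Rab11a (240), of the recycling endosome, Rab10 (198), of surface delivery, and Rab7a (175), of the late endosome. These 5 genes held 47.6% of the summed mean Rab FPKM. In all, 7 members had a mean above 100 FPKM, 28 lay from 5 to 100 FPKM and 10 lay below 5 FPKM. The order within the highest set differed between libraries, and replicate 1 was high for some of them. By the mean of replicates 2 and 3, Rab11a (85.7 FPKM) lay below Rab11b (153 FPKM) and Rab6a (121 FPKM), both outside these 5.

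Rab11a had 595, 86.8 and 74.0 FPKM in control replicates 1, 2 and 3 and 501, 84.4 and 97.8 FPKM in the fibril replicates. Rab5c had 545, 162 and 176 FPKM against 493, 189 and 245 FPKM. Rab2a had 356, 199 and 158 FPKM against 539, 192 and 160 FPKM. In these 3 genes both replicate 1 libraries lay above all the others, and the groups overlapped. Rab10 had 287, 101 and 136 FPKM without fibrils and 398, 139 and 128 FPKM with them. Rab7a was steadier, with 187, 147 and 137 FPKM against 218, 164 and 197 FPKM; the fibril library was the higher one in 3 of 3 replicate numbers, but the groups overlapped (log2 difference 0.30, limma SE 0.42). Among neighbours in this order, the library ranges of Rab5c, Rab2a, Rab11a, Rab10 and Rab7a overlap.

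The mean of the replicate 1 libraries was at least 2 times that of replicates 2 and 3 in 13 of 45 Rab genes, against 12.8% of all genes tested. The ratio was 8.95 for Rab26, of secretory granules, 6.39 for Rab11a and 3.67 for Rab9b, of retrieval from the late endosome. Rab34 (0.39), Rab15 (0.46) and Rab35 (0.55) stood at the other end. The balance of Rab11a and Rab11b followed the replicate number in both groups: Rab11b made up 25.8%, 60.5% and 66.4% of their joint FPKM in control replicates 1, 2 and 3 and 27.2%, 58.3% and 68.5% in the fibril replicates.

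**Figure D1:**
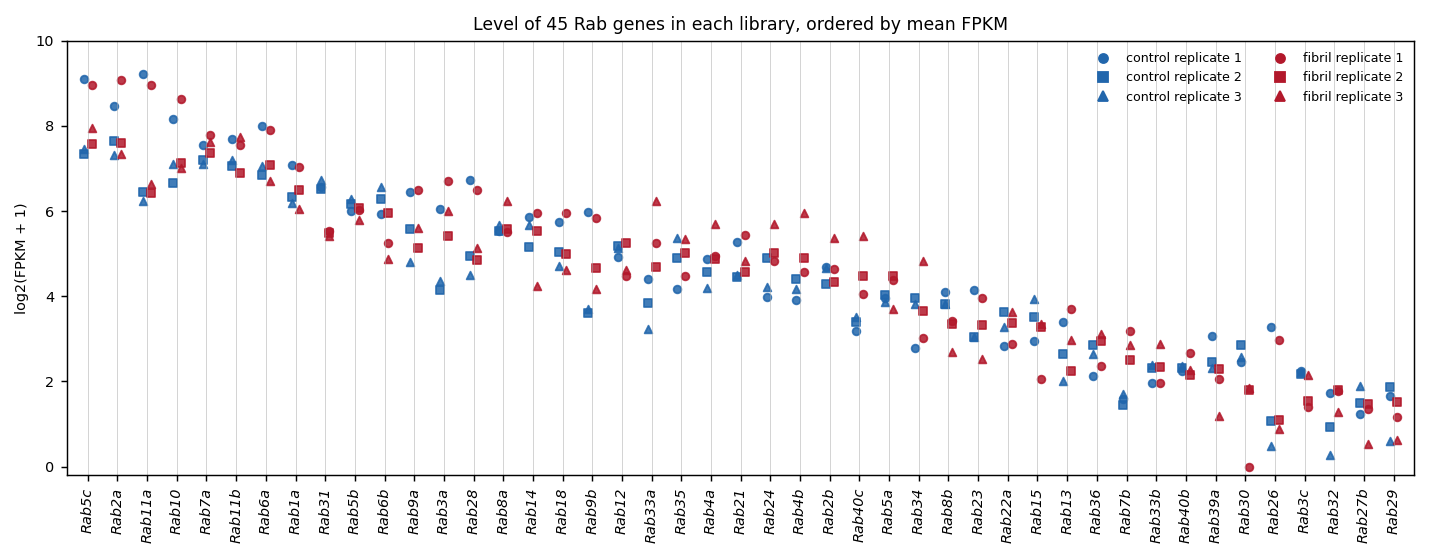
Level of 45 Rab genes as log2(FPKM + 1) in each of the 6 libraries, ordered by mean FPKM (controls in blue, fibril libraries in red, 1 marker shape for each replicate number). Replicate 1 of both groups (circles) lies far above the other libraries for Rab11a, Rab9b and Rab26, and Rab30 is listed at 0 in fibril replicate 1.

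At the low end, Rab26 had 8.74, 1.11 and 0.403 FPKM without fibrils and 6.88, 1.13 and 0.848 FPKM with them. Rab27b, of granule and exosome release, had 1.35, 1.82 and 2.69 FPKM against 1.56, 1.78 and 0.446 FPKM. Rab29, the Rab tied to LRRK2 at the Golgi and lysosome, had 2.16, 2.67 and 0.517 FPKM against 1.25, 1.88 and 0.532 FPKM. These are the 3 members just inside the level rule, with a third-highest value of 1.13, 1.78 and 1.88 FPKM. Just outside it were Rab3d (0.520), Rab43 (0.408) and Rab20 (0.395 FPKM), the last with 4.86 FPKM in fibril replicate 1 alone against 1.21 FPKM in control replicate 1. Rab27a, the other exosome Rab, lay at 0.215, 0.265 and 0.217 FPKM without fibrils and 0, 0.138 and 0 FPKM with them. Rab17, Rab19, Rab25, Rab37 and Rab42 were listed at 0 throughout, Rab38 and Rab44 were above 0 in 1 control library each, and Rab3b reached at most 0.539 FPKM.

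Between fibril and control cells most Rab genes differed little. The log2 difference, taken on log2(FPKM + 1) as fibril minus control, had a median of 0.13 over the 45 members and ran from -1.42 to 1.56; the median over all genes tested was -0.04. In 30 of 45 members the value lay within 0.5 of 0, as in 64.6% of all genes. By limma without a block 0 of 45 members passed an adjusted p of 0.05 (0% of all genes did; smallest member value 0.96), and with the replicate number as a block 0 of 45 passed as well (0.111% of all genes; smallest member value 0.331). At an unadjusted p of 0.05 there were 5 of 45 members without a block (4.02% of all genes) and 10 of 45 with it (9.84% of all genes). The limma fit without a block put 3 of those 5 higher (2.21% of all genes) and 2 lower (1.81% of all genes) with fibrils. Without control replicate 1 there were 8 of 45 (8.69% of all genes), and without control replicate 3 there were 3 of 45 (1.85% of all genes).

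Sign counts over the members depended on how the libraries were scaled. The difference was positive in 30 of 45 members on FPKM (47% of all genes), in 21 under quantile normalization and in 12 after scaling to equal totals without mitochondrial genes, which moved the median of all genes to -0.30 and that of the members to -0.16, or 0.14 relative to all genes. The members' median within replicates 1, 2 and 3 was 0.05, 0.03 and 0.34, and it was -0.14 without fibril replicate 1 and -0.04 without control replicate 3. The groups did not overlap in 10 of 45 members (9.55% of all genes), 5 of them higher with fibrils (4.24% of all genes) and 5 lower (5.3% of all genes). These 10 genes kept their direction under both scalings. The number of members without overlap was 7 after scaling without mitochondrial genes (9.56% of all genes) and 8 under quantile normalization (9.18% of all genes). For each of the 10 genes on FPKM, the exact permutation p, 3 libraries against 3, was 0.1, the smallest such a design allows. Groups without overlap always give this value, so it adds nothing to the count. Without control replicate 1 the groups did not overlap in 20 of 45 members (30.1% of all genes), and with replicates 2 and 3 only in 23 of 45 (42.2% of all genes).

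**Figure D2:**
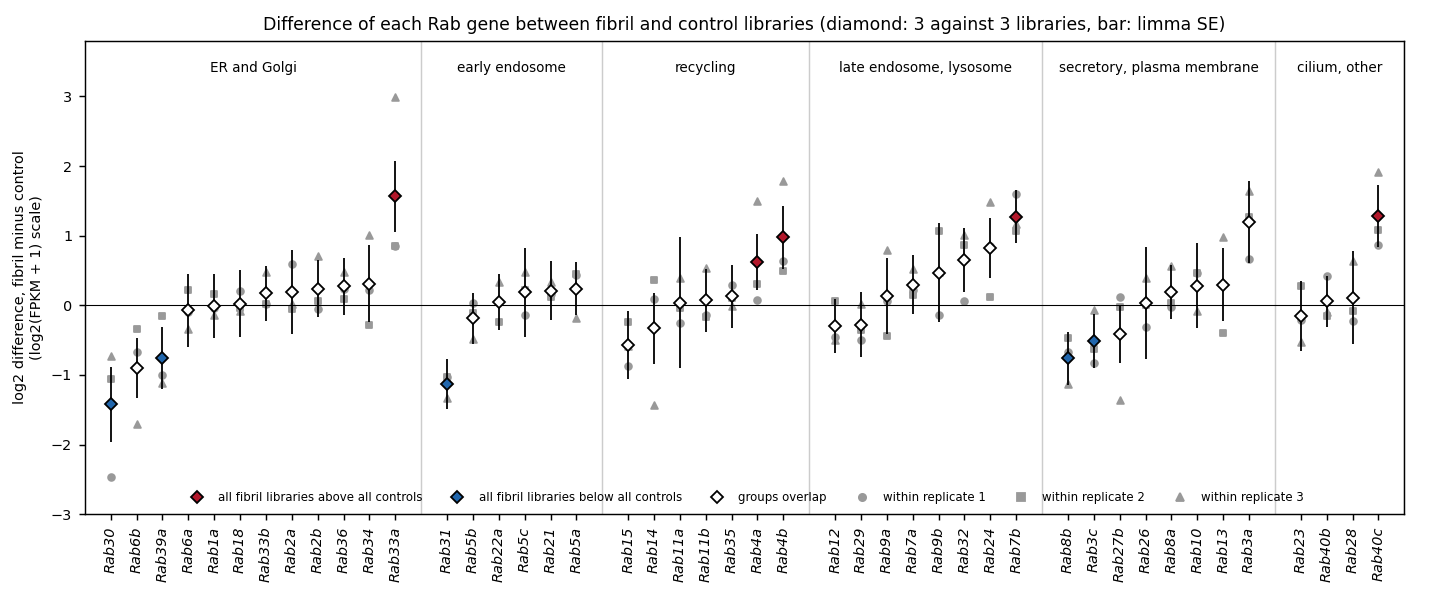
Difference of each of 45 Rab genes, fibril minus control on the log2(FPKM + 1) scale, grouped by compartment. Diamonds with limma SE bars are 3 against 3 libraries (red or blue where the groups do not overlap, 5 genes each), grey symbols give the same difference inside each replicate number; Rab33a is highest at 1.56 and Rab30 lowest at -1.42.

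The 5 Rab genes with every fibril library above every control were Rab33a, Rab40c, Rab7b, Rab4b and Rab4a. Rab33a (chromosome X, 135348435 to 135360203), a Golgi and vesicle Rab known from neurons, had 20.3, 13.2 and 8.46 FPKM without fibrils and 37.3, 24.7 and 74.2 FPKM with them. The lowest fibril library lay little above the highest control, and fibril replicate 3 was far above the rest. Its log2 difference was 1.56 (limma SE 0.51; unadjusted p = 0.014, adjusted p = 0.96, and 0.407 with the block), and the ratio of means was 3.24. Rab40c (chromosome 10, 15241589 to 15282951), one of the Rabs that carry a SOCS box and so join ubiquitin ligases, had 8.07, 9.56 and 10.3 FPKM without fibrils and 15.5, 21.3 and 41.6 FPKM with them. The controls lay close together and the fibril libraries were spread, each above them (log2 difference 1.28, limma SE 0.44; unadjusted p = 0.0177, adjusted p = 0.96, and 0.331 with the block).

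Rab7b (chromosome 13, 48455922 to 48482138), which works between the late endosome and the trans-Golgi network, had 2.01, 1.71 and 2.25 FPKM without fibrils and 8.07, 4.67 and 6.27 FPKM with them. The means were 1.99 ± 0.271 and 6.34 ± 1.70 FPKM (SD, n = 3 each), and the gap between the nearest libraries of the groups exceeded either SD. Its log2 difference of 1.27 (limma SE 0.38) had the smallest unadjusted p of the 45 members (0.0083; adjusted p = 0.96, and 0.331 with the block). Rab4b (chromosome 1, 83979297 to 83990588) and Rab4a (chromosome 19, 56585766 to 56613075) act in fast recycling from the early endosome. Rab4b had 14.1, 20.1 and 16.9 FPKM without fibrils and 22.6, 28.8 and 60.9 FPKM with them. Rab4a had 28.3, 22.8 and 17.3 FPKM against 30.0, 28.3 and 50.6 FPKM, so that its groups were separated by a hair and fibril replicate 3 made most of the difference. Their log2 differences were 0.98 (limma SE 0.45) and 0.62 (SE 0.41). For Rab4b the unadjusted limma p was 0.0606, and 0.0243 with the block (adjusted p = 0.481). For Rab4a the unadjusted limma p was 0.16, and 0.12 with the block.

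The 5 Rab genes with every fibril library below every control were Rab31, Rab30, Rab39a, Rab8b and Rab3c. Rab31 (chromosome 9, 113370032 to 113504605), also called Rab22b and known to carry cargo between the trans-Golgi network and endosomes in oligodendrocytes, had 93.6, 91.0 and 106 FPKM without fibrils and 45.3, 44.1 and 41.4 FPKM with them. It was the abundant gene with the tightest groups: the means were 96.7 ± 7.76 and 43.6 ± 1.98 FPKM (SD, n = 3 each), and replicate 1 did not stand apart. The control mean was 2.22 times the fibril mean and the log2 difference was -1.13 (limma SE 0.36; unadjusted p = 0.0128, adjusted p = 0.96, and 0.331 with the block). Rab30 (chromosome 1, 157573323 to 157660008), a Golgi Rab, had 4.53, 6.27 and 5.00 FPKM without fibrils and 0, 2.48 and 2.60 FPKM with them. The value of 0 in fibril replicate 1 can be a failed estimate, and without that library the log2 difference was -0.81 in place of -1.42 (SE 0.54; unadjusted p = 0.0283, adjusted p = 0.96 over all libraries, and 0.407 with the block).

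The other lower genes were nearer to their controls. Rab8b (chromosome 8, 72638002 to 72714664), of delivery to the plasma membrane, had 16.0, 13.1 and 13.2 FPKM without fibrils and 9.71, 9.20 and 5.48 FPKM with them (log2 difference -0.76, limma SE 0.38; unadjusted p = 0.079, and 0.04 with the block, adjusted p = 0.497). Rab39a (chromosome 8, 58272097 to 58293102) had 7.32, 4.50 and 3.96 FPKM against 3.14, 3.92 and 1.29 FPKM (log2 difference -0.76, limma SE 0.44; unadjusted p = 0.121, and 0.0622 with the block). Rab3c (chromosome 2, 41570596 to 41785792), of regulated secretion, had 3.71, 3.48 and 3.70 FPKM against 1.64, 1.89 and 3.47 FPKM (log2 difference -0.51, limma SE 0.38; unadjusted p = 0.212, and 0.168 with the block). For Rab39a and Rab3c the nearest libraries of the 2 groups differed by less than the spread within the fibril group.

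**Figure D3:**
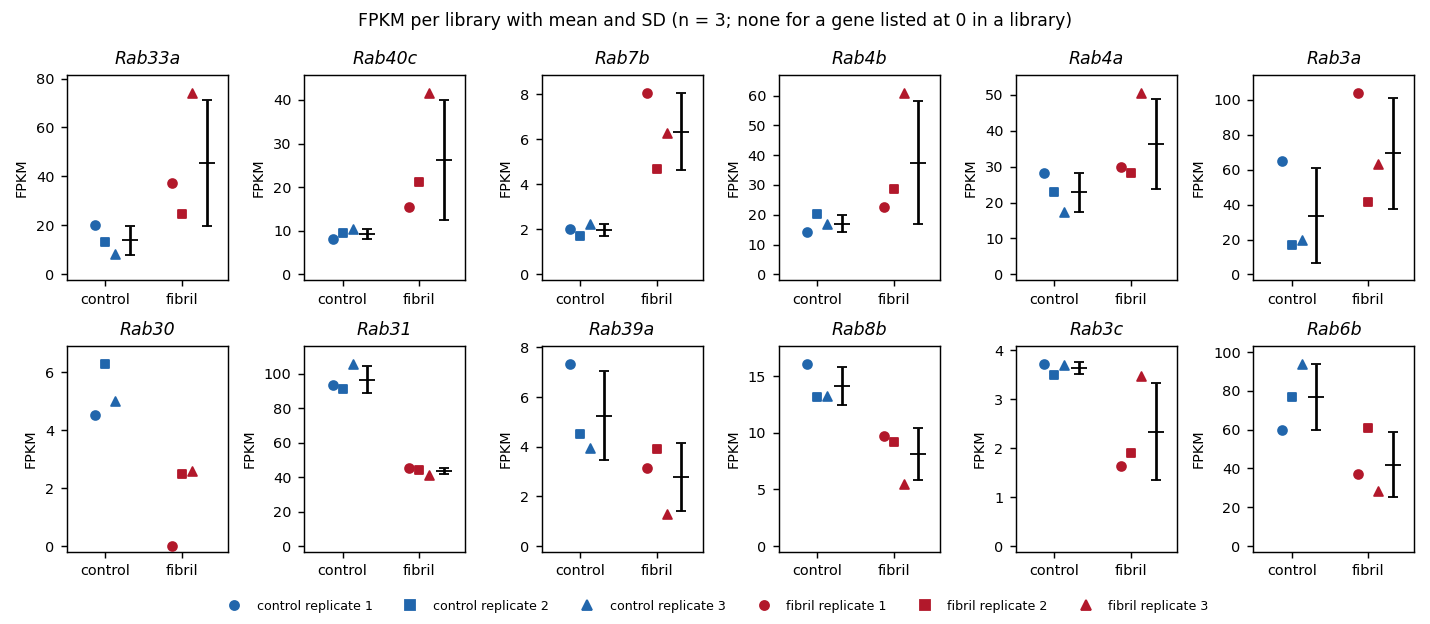
FPKM of 12 Rab genes in each library, with mean and SD (n = 3; left out for Rab30, which is listed at 0 in 1 library): the 5 genes whose fibril libraries all lie above the controls, the 5 whose fibril libraries all lie below, and Rab3a and Rab6b, whose groups overlap. Rab31, Rab7b and Rab8b have gaps between the groups wider than either SD, as has Rab30, whose SD is not drawn. For Rab4a, Rab39a and Rab3c the groups almost touch.

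Promoters of 5 of these genes are shown because their differences go both ways, so that sequences of genes higher and lower with fibrils can be set side by side. They are the 250 bases before the start site from RefSeq on the rat build GRCr8, read 5′ to 3′ on the gene's strand. Capitals mark matches on either strand to the SP1 box GGGCGG, the CCAAT box CCAAT and the E-box CACGTG. Rab7b, Rab40c and Rab4b were higher, Rab31 and Rab30 lower.
Rab7b promoter, chr13:45673195-45673444, plus strand: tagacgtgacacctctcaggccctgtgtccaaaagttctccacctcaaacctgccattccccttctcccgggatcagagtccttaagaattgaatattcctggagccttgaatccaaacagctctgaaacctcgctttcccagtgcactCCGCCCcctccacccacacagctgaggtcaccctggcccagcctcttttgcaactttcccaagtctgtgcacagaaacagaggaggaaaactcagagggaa
Rab40c promoter, chr10:15440660-15440909, minus strand: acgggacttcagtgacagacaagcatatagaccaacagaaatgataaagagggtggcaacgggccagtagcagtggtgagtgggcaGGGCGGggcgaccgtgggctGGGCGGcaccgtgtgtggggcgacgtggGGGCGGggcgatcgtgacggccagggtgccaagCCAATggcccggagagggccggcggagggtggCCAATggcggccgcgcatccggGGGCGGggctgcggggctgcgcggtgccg
Rab4b promoter, chr1:91600338-91600587, minus strand: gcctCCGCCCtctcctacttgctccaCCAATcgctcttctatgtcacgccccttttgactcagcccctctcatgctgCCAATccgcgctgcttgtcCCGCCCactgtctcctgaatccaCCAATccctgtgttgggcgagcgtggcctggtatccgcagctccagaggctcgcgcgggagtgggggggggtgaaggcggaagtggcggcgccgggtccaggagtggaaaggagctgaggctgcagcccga
Rab31 promoter, chr9:112828093-112828342, minus strand: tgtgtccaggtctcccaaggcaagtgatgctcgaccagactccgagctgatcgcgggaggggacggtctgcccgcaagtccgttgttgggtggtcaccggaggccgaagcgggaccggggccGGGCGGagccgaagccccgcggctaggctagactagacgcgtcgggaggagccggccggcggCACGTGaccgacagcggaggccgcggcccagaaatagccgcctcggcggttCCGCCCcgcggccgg
Rab30 promoter, chr1:156215887-156216136, plus strand: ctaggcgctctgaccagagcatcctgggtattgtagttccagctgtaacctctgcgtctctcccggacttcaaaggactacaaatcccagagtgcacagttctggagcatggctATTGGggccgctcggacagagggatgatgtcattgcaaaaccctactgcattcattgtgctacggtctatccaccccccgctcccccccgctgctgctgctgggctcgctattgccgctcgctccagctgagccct
The Rab40c window holds 4 SP1 boxes and 2 CCAAT boxes, the Rab4b window 2 and 3, the Rab31 window 2 SP1 boxes and 1 E-box, the Rab7b window 1 SP1 box, and the Rab30 window 1 CCAAT box. Rab31 had 72.4% G and C with 34 CpG pairs and Rab7b 53.2% with 4.

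RefSeq gave a promoter for 37 of 45 members. The SP1 box was in 31 of 37 (83.8%), against 32.4% of 27457 rat promoters and 61.9% of the 7938 promoters of genes tested. The CCAAT box was in 14 of 37 (37.8%, against 34.3% of all and 36.5% of tested genes), the E-box in 3 of 37 (Rab21, Rab31 and Rab5a; 8.11%, against 5.79% of all and 8.57% of tested genes) and the NRF1 motif in 6 of 37 (16.2%, against 4.17% of all and 10.4% of tested genes). The TATA box TATAAA was in 0 of 37 (13.1% of all promoters, 5.59% of tested genes) and the cyclic AMP response element TGACGTCA in 0 of 37 (1.70% and 3.19%). The NF-kB motif was found for Rab28 alone (1.28% of all promoters, 1.34% of tested genes), the SOX motif ACAAAG for Rab14 alone (16.0% and 10.9%) and the ETS motif CCGGAAGT for Rab11a alone (3.29% and 7.80%). Median GC content was 63.2% for Rab genes, 52% for all promoters and 61.2% for those of genes tested. A match describes letters in this window and not a bound site.

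By compartment, the 12 Rab genes of the endoplasmic reticulum and Golgi had a median log2 difference of 0.10, with 7 positive. After scaling without mitochondrial genes the median was -0.20 here, -0.18 for the early endosome, -0.24 for recycling, -0.11 for secretion and -0.19 for the cilium group, against -0.30 for all genes. Rab1a, Rab18 and Rab6a lay within 0.1 of 0. Rab6b (chromosome 8, 111600531 to 111668808), the paralogue of Rab6a found mainly in brain, had 59.7, 76.8 and 93.6 FPKM without fibrils and 37.2, 60.7 and 28.1 FPKM with them. It was lower in 3 of 3 replicate numbers, but fibril replicate 2 lay above control replicate 1 (log2 difference -0.90, limma SE 0.43; unadjusted p = 0.0676, and 0.0341 with the block, adjusted p = 0.492). Rab2a, Rab2b, Rab33b, Rab34 and Rab36 had differences from 0.17 to 0.31 with overlapping groups.

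Among the 6 early endosome genes the median was 0.12 and 4 were positive. Apart from Rab31, they ran from -0.19 for Rab5b to 0.24 for Rab5a. Rab5a had 14.5, 15.4 and 13.7 FPKM without fibrils and 20.0, 21.4 and 11.98 FPKM with them. The row with this symbol lies on chromosome 14 in the deposited table (72889037 to 72970329), whereas RefSeq places Rab5a on chromosome 9, so which locus its value measures is uncertain; the chromosomes of the other 44 members matched. Rab21, of integrin traffic, and Rab22a had differences of 0.21 and 0.05.

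The 7 recycling genes had a median of 0.07. Besides Rab4a and Rab4b, Rab11a and Rab11b were near 0 (0.04 and 0.07), with a wide SE for Rab11a (0.94). Rab35, linked to exosome release from oligodendroglia, had 17.0, 28.9 and 40.1 FPKM without fibrils and 21.1, 31.1 and 39.8 FPKM with them, so that its level followed the replicate number in both groups. Rab15 had 6.67, 10.5 and 14.2 FPKM against 3.19, 8.67 and 9.21 FPKM, lower within 3 of 3 replicate numbers with overlapping groups (-0.57). Rab14 differed by -0.33.

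The 8 genes of the late endosome, lysosome and related organelles had the highest compartment median, 0.38 (0.08 after scaling without mitochondrial genes, 0.26 under quantile normalization), and the medians within replicates 1, 2 and 3 were 0.06, 0.14 and 0.66. Positive differences were seen in 6 of 8, and 4 were higher in 3 of 3 replicate numbers (16.9% of all genes). Rab24, a Rab tied to autophagy, had 14.8, 28.8 and 17.5 FPKM without fibrils and 27.4, 31.5 and 50.8 FPKM with them (log2 difference 0.82, limma SE 0.43; unadjusted p = 0.0884, and 0.0454 with the block, adjusted p = 0.499). Control replicate 2 lay above fibril replicate 1, so its groups overlapped. Rab32, of lysosome-related organelles and mitochondria, had 2.30, 0.913 and 0.213 FPKM against 2.44, 2.50 and 1.45 FPKM. Rab9a and Rab9b differed by 0.14 and 0.47, and Rab12 and Rab29 by -0.30 and -0.28.

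The 8 secretory and surface delivery genes had a median of 0.11. Rab3a (chromosome 16, 20432898 to 20439206), the synaptic vesicle Rab that oligodendrocytes also make, had 65.0, 16.6 and 19.4 FPKM without fibrils and 104, 41.5 and 63.0 FPKM with them. Within each replicate number the fibril library was the higher one, but control replicate 1 lay above fibril replicates 2 and 3. The log2 difference was 1.20 (limma SE 0.59; unadjusted p = 0.0753, and 0.00556 with the block, adjusted p = 0.349). Rab8a, Rab10, Rab13 and Rab26 lay between 0.03 and 0.30, and Rab27b at -0.42. In the last compartment, Rab23, which acts in the cilium and Hedgehog signalling, Rab28 and Rab40b lay between -0.15 and 0.11, beside Rab40c at 1.28.

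The balance between paralogues was compared as the share of one gene in the summed FPKM of its family, a ratio that a constant factor per library does not change. Of 15 shares tested in 13 families, 6 did not overlap between the groups. By level, a different measure, groups were apart in 9.55% of all genes. No such rate was computed for shares of other gene pairs. Of the 6 shares, 5 are of genes already described as without overlap. Each of the 6 had an exact permutation p of 0.1, the smallest possible, and an adjusted p of 0.25. Shares without overlap always give that exact p, so it adds nothing to the count. Rab8b made up 23.2% ± 2.72 of Rab8a and Rab8b in controls and 13.8% ± 6.05 with fibrils (SD, n = 3 each). Rab40c made up 70.2% ± 1.65 of Rab40b and Rab40c, and 84.0% ± 8.84 with fibrils. Rab31 held 91.7% ± 2.52 of its pair with Rab22a, and 82.8% ± 4.59 with fibrils. In these pairs the partner gene had overlapping groups.

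Rab7b stayed a minor partner of Rab7a, with 1.27% ± 0.297 of their sum in controls and 3.14% ± 0.402 with fibrils. Rab3c held 12.9% ± 6.55 of Rab3a and Rab3c in controls and 3.71% ± 1.92 with fibrils. Its groups were barely apart, at 5.40% in control replicate 1 and 5.22% in fibril replicate 3. Rab29 held 64.6% ± 14.1 of its sum with Rab32 in controls and 34.6% ± 8.13 with fibrils, both genes being near the level limit. The other families overlapped. Rab6b held 33.5% ± 12.7 of its pair in controls and 22.0% ± 8.93 with fibrils, and Rab5c 72.9% ± 12.7 and 77.5% ± 8.55 of the Rab5 family.

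**Figure D4:**
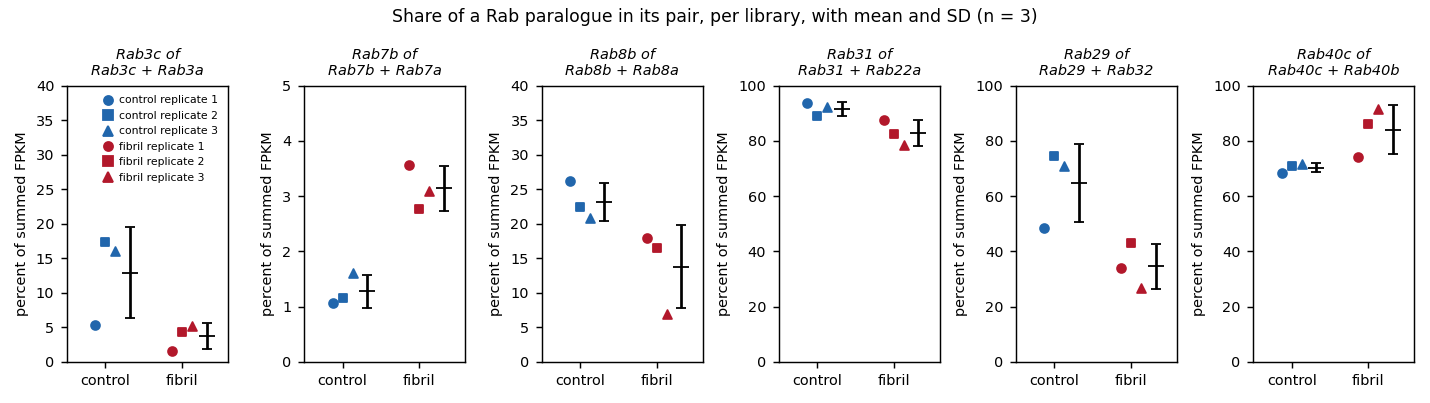
Share of a Rab gene in the summed FPKM of its pair, in percent, per library with mean and SD (n = 3; vertical scales differ between panels). The 6 pairs shown are those without overlap between the groups, such as Rab7b at 1.27% in controls and 3.14% with fibrils, and Rab31 at 91.7% and 82.8%.

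Some Rab genes neighbour each other, and their differences are given as values. Rab7b and Rab29 lie 162 kb apart on chromosome 13 and differed by 1.27 and -0.28. Rab31 and Rab12 (chromosome 9, 1179 kb) differed by -1.13 and -0.30, Rab3a and Rab8a (chromosome 16, 1056 kb) by 1.20 and 0.19, and Rab40c and Rab26 (chromosome 10, 1343 kb) by 1.28 and 0.03. The rows of Rab5a and Rab28 (chromosome 14, 919 kb) differed by 0.24 and 0.11. Distances are from the deposited coordinates.

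The proteins that run the Rab cycle were read from a list of 130 genes, of which 101 were tested. Their median log2 difference was -0.17 (-0.04, -0.02 and -0.59 within replicates 1, 2 and 3), with 34 positive (47% of all genes) and 67 negative. By limma 0 of 101 passed an adjusted p of 0.05 without a block or with it, and 1 had an unadjusted p under 0.05 (4.02% of all genes), or 5 with the block (9.84% of all genes). That gene was Rab11fip4, an effector of Rab11, with 5.50, 7.92 and 10.3 FPKM without fibrils and 2.84, 6.05 and 0.972 FPKM with them (-1.21, limma SE 0.52; unadjusted p = 0.0473). Its groups overlapped, and fibril replicate 3 was the lowest library.

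The 28 tested GEFs had a median of -0.17, the 30 GAPs -0.21 and the 36 effectors -0.17. The 7 tested GDI, escort and prenylation genes had a median of 0.17, with 6 positive (47% of all genes), or -0.10 after scaling without mitochondrial genes (0.20 relative to all genes). Inside replicates 1, 2 and 3 the median of these 7 was -0.13, -0.08 and 0.82, so it was positive in replicate 3 alone. Of the 7, 1 was higher in 3 of 3 replicate numbers (16.9% of all genes) and 1 was lower (19.3% of all genes). Gdi2, a widely expressed GDI, had 201, 120 and 123 FPKM without fibrils and 216, 110 and 154 FPKM with them. Its groups overlapped, with replicate 1 as the highest library of each group.

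Vps35, a retromer subunit that works with Rab7 and is linked to Parkinson's disease, had 39.1, 58.5 and 57.9 FPKM without fibrils and 56.5, 56.0 and 60.5 FPKM with them. Lrrk2, the kinase that acts on Rab8a, Rab10, Rab12, Rab29 and Rab35, was below the level rule, with 0.138, 0.150 and 0.0682 FPKM against 0.236, 0.283 and 0.0328 FPKM. Of the 101 machinery genes 12 were without overlap (9.55% of all genes), 6 higher and 6 lower. One of the higher genes was Tbc1d10b, a GAP for Rab35 chosen here after its values were seen, which had 12.7, 13.8 and 15.8 FPKM without fibrils and 16.3, 19.2 and 29.5 FPKM with them, without overlap (log2 difference 0.55, limma SE 0.38).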

How the data were processed

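RNA of 3 control and 3 fibril libraries was sequenced on an Illumina MiSeq after strand-specific preparation, per the labels and the series' design text. The authors deposited FPKM per gene and library, per the file headers. The submitters' processing notes name FastQC and Trimmomatic. The aligner, the quantifier and the build of the coordinates were not given in the sources used here. Hprt1 and Rps6 are listed at 0 in all 6 libraries, so an exact 0 can be a failed estimate.

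Values were analysed as log2(FPKM + 1), which understates changes of low genes, for genes that reached 1 FPKM in 3 or more libraries. The fit used limma 3.58.1 in R 4.3.3 (two-sided, with a mean-variance trend, p adjusted by Benjamini-Hochberg over 10766 genes, threshold 0.05). A run on simulated data planted changes only in genes with a mean log2(FPKM + 1) above 3. It did not cover low members such as Rab7b and Rab30, and its outcome is not given here. Paralogue shares used exact two-sided permutation tests, adjusted over 15 shares. Same-numbered libraries correlated across genes at 0.747, 0.364 and 0.216 after subtracting group means, each above the rule of 0.1. The crossed pairs of replicates 2 and 3 gave larger values (0.433 for control 2 and fibril 3, 0.5 for control 3 and fibril 2), so the pairing rests mainly on replicate 1. The labels state no pairing, and block values are given where they change a count. The members and gene lists were chosen with earlier results of these data known. Genes with values by library were those with an unadjusted p under 0.05 or groups that did not overlap, the 5 largest differences each way, the 5 highest means, the 3 nearest the level rule, and a fixed set with Rab3a, Rab5a, Rab7a, Rab11a, Rab27b, Rab29, Rab32 and Rab35, plus Gdi2, Vps35 and Lrrk2. Rab24, Rab15 and symbols below the level rule are outside it and were chosen after their values were seen; a gene of the fixed set is not reported here. Promoters were matched by symbol to RefSeq (GRCr8). Protein sequences were not used here.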

Additional observations from a re-analysis of the deposited data

How the results depend on the processing

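Counts past an adjusted p of 0.05 were 0 higher and 0 lower under all 17 alternatives by limma: the replicate block, pseudocounts of 0.1 and 5, no filter, a mean of at least 5 FPKM, quantile normalization, scaling without mitochondrial genes, each of 6 libraries left out, and 4 settings chosen after seeing the data (replicates 2 and 3 only, and the block with quantile normalization, with scaling, or without fibril replicate 3). The count of members at an unadjusted p of 0.05 was 5 (4.02% of all genes). It was 10 with the replicate block (9.84% of all genes) and 8 with the block and scaling (8.79%). The block with quantile normalization gave 9 (10.2%), and the block without fibril replicate 3 (replicates 1 and 2 only) gave 10 (9.80%). At a mean of at least 5 FPKM it was 3 of 35 members left (3.33% of all genes). Leaving out 1 library gave 3 (1.85% of all genes) to 8 (8.69%). The pairing changed no adjusted call. Members without overlap numbered 10 (9.55% of all genes), but 6 of 35 at a mean of at least 5 FPKM (8.52% of all genes there). They numbered 23 with replicates 2 and 3 only (42.2% of all genes there). Leaving out 1 library gave 11 to 20 (12.6% to 30.1% of all genes). The median difference of 0.13 became -0.16 with scaling, with the block or without it, and -0.0045 under quantile normalization (-0.0047 relative to all genes), and ran from -0.14 (without fibril replicate 1) to 0.29 leaving out 1 library. The machinery median ran from -0.44 (scaling) to -0.06 (quantile normalization), and was 0.0024 with the block without fibril replicate 3. Rab7b, Rab31, Rab33a, Rab40c, Rab30 and Rab6b kept their direction in every setting that gave a value, as did the 6 paralogue shares when 1 library was left out. Rab30 ran from -1.74 to -0.81 leaving out 1 library, Rab31 from -1.17 to -1.07, Rab33a from 1.14 to 1.92 and Rab7b from 1.11 to 1.45. Larger moves came with a pseudocount of 5 (Rab7b 0.69, Rab30 -0.64), a pseudocount of 0.1 (Rab30 -2.58), replicates 2 and 3 only (Rab30 -0.90) and the block without fibril replicate 3 (Rab33a 0.85, Rab6b -0.50). The fragments behind an FPKM value are unknown, so counting error could not be given for genes near 1 FPKM, such as Rab27b, Rab29 and Rab32.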
